A study of Homo sapiens with 5 samples.

Results

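Amino acid transporters of the plasma membrane were followed through their mRNAs as a group of 10 genes, SLC7A1, SLC7A5, SLC7A6, SLC3A2, SLC1A4, SLC1A5, SLC38A1, SLC38A2, SLC6A9 and SLC43A1. They were selected by gene symbol, and all 10 had reads in all 5 libraries, out of 19716 genes with a read in any library and 16688 with a read in every library. The cells were HEK293T, a human embryonic kidney line that carries SV40 large T antigen and is grown because it takes up plasmids readily. 4 libraries came from cells given a plasmid for a catalytically dead Cas9 (dCas9) joined to a blue fluorescent protein (BFP) and to 1 further domain, together with 5 guide RNAs that target uPA, the urokinase plasminogen activator gene PLAU, at its promoter. This further domain was the catalytic domain of the maintenance methyltransferase DNMT1, of the de novo methyltransferase DNMT3A or DNMT3B, or the fluorescent protein EGFP, which has no methyltransferase activity. The study reports significantly higher methylation of the uPA promoter with the DNMT3A and DNMT3B fusions, but not with the DNMT1 or EGFP fusion. The groups, labelled dCas9-BFP- followed by DNMT1, DNMT3A, DNMT3B or EGFP, are called by that last part below. The control group received the cloning plasmid pUC19 with no dCas9 fusion and no guide. All 5 groups received 1 ug of plasmid in all by X-tremeGENE 9, and poly(A) RNA was sequenced from cells taken 48 hours later and described as sorted for BFP. pUC19 carries no BFP gene, and how the control cells were gated is not given in the sources used here, so the dCas9 fusion, the guides and the sort cannot be told apart in a comparison with pUC19.

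Amino acids cross the plasma membrane through carriers of the solute carrier (SLC) families, which differ in the amino acids they accept and in what drives them. Some use the sodium gradient to concentrate amino acids in the cell, others exchange an amino acid inside for one outside, and a few let amino acids run down their own gradient. Many of these genes are known to be transcribed more when amino acids are short or when protein folding is disturbed, through the transcription factor ATF4, which binds a composite DNA element (C/EBP-ATF response element, CARE) with partners of the C/EBP family, and several are also known targets of MYC, which binds E-boxes.

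The letters of the composite element, TGATGNAAN on either strand, stood in at least 1 promoter window of 5 of the 10 transporters. A window ran from 250 bases before to 50 bases after a start in RefSeq (GRCh38.p14), the members had 17 windows, and 5 of these 17 held the letters, against 3.61% of 35116 windows of all genes. The 5 stretches are shown because they let the values of SLC1A4, SLC7A1, SLC3A2, SLC1A5 and SLC38A1 be read beside the same element. Capitals mark the match, each is written 5′ to 3′ on the strand of the gene, and in SLC1A4 and SLC3A2 the match is the reverse complement of the letters above.
SLC1A4, chr2:64989381-64989409, plus strand: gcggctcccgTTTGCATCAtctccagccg
SLC7A1, chr13:29595663-29595691, minus strand: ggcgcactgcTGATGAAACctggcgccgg
SLC3A2, chr11:62881725-62881748, plus strand: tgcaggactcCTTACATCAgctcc
SLC1A5, chr19:46784893-46784921, minus strand: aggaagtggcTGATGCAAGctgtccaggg
SLC38A1, chr12:46266502-46266530, minus strand: cagacccgaaTGATGAAAAgggatcagct
In SLC1A4 the match ran from base -8 to base 1 relative to the start, and in SLC7A1 from base 8 to base 16. The SLC38A1 window belongs to a start that was not found among the GENCODE transcripts used here. The E-box letters CACGTG stood in 3 of the 17 windows, those of SLC7A5, SLC1A5 and SLC43A1, against 7.26% of all windows. The SLC7A5 copy, which runs from base -130 to base -125, is shown because SLC7A5 was the most abundant member in 3 of the 5 libraries.
SLC7A5, chr16:87869622-87869647, minus strand: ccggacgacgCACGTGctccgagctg
A match is a description of the letters and does not show binding. Sequence outside the windows was not searched, so a member with no match may still hold the letters elsewhere, for example in an intron. None of the 17 windows held the last 10 bases of any of the 5 uPA guides followed by NGG, on either strand. Over all 35116 windows, 0.0114% to 0.196% held such a match, depending on the guide. A match is so rare that its absence from 17 windows says little about the guides. Shorter matches were not searched for.

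Levels are given as TPM, transcripts scaled to the same total in every library, which corrects for gene length and library size, so members can be compared with each other within a library. The libraries held 26200000 to 36100000 reads (rounded) assigned to genes. Counting error alone gave a 95% exact binomial half-width of at most 7.08% on any member, and PCR copies cannot be recognised, so this covers counting error only. There was 1 library per group. An interval below therefore describes 2 libraries, has no replicate check, and does not measure how cultures of 1 group vary. "Called" means an adjusted p of at most 0.001 in an exact test of the read counts of 2 libraries together with a ratio of at least 2, taken as the difference of log2(TPM + 0.1). The intervals of ratios are on the TPM scale whereas the exact test scales by read totals, so an interval can leave out 0 where the test does not pass, and the reverse. The identity of the cells was checked with 9 HEK293T markers, all of which were present, at 3.38 TPM or more. IRS4, NEFL, NEFM and LHX1 among them were lower in all 4 fusion libraries than in pUC19. IRS4, for example, was at 66.3 to 76.5 against 396 TPM, and LHX1 at 3.38 to 5.24 against 5.25 TPM. KRT8 (51.0 to 70.8 against 36.1 TPM) and VIM (463 to 599 against 437 TPM) were higher in all 4. Of the 8 markers of other cell types, 6 had reads and only COL1A1 (3.87 to 7.97 TPM) and EPCAM (1.09 to 2.24 TPM) passed 1 TPM, with the summed level at 5.83 to 11.1 TPM. PLAU, the targeted gene, was at 0.03 to 0.18 TPM in the fusion libraries and 2.48 TPM in pUC19.

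Against pUC19, SLC1A4 was higher in all 4 fusion libraries, by 2.02 to 4.22 times. SLC7A1 and SLC6A9 were more than 2 times higher with EGFP alone, and SLC7A5 was at 1.99 times there. SLC3A2 was above pUC19 in all 4, with log2 ratios from 0.03 to 0.35, and SLC7A6 below it in all 4 (-0.76 to -0.21). SLC1A5 (-0.31 to 0.03), SLC43A1 (-0.34 to 0.16) and SLC38A1 (-0.71 to 0.14) were below pUC19 in all but the EGFP library. SLC38A2 ran from -0.05 with DNMT3A to 0.71 with EGFP. In bulk RNA, fewer cells with a transcript and less of it per cell cannot be told apart. The EGFP fusion library, with no methyltransferase domain, held the highest level of 8 of the 10 members among all 5 libraries, whereas it held the highest level of 22.1% of the 16001 genes tested. Among the 4 fusion libraries the same 8 members were highest with EGFP, against 34.2% of the genes. The summed level of the 10 members was 1312 TPM with DNMT1, 1311 with DNMT3A, 1365 with DNMT3B, 1786 with EGFP and 1196 in pUC19.

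**Figure D1:**
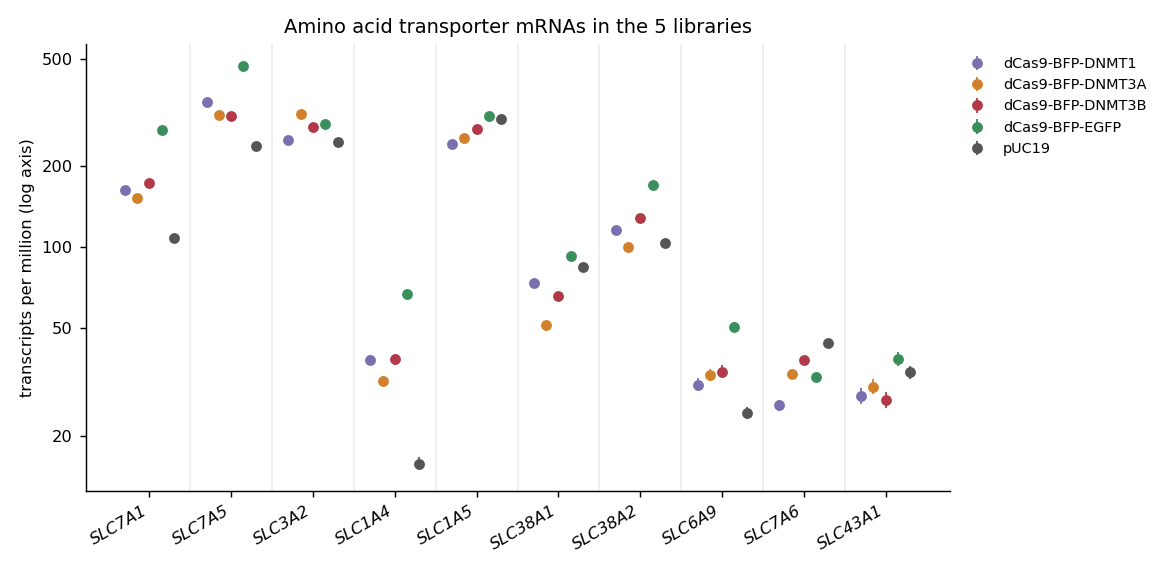
TPM (log axis) of each of the 10 amino acid transporter genes in the 5 libraries, 1 point per library, with bars for the 95% counting interval. EGFP fusion points lie highest for 8 members, and the pUC19 point of SLC1A4 is the lowest value of all, at 15.8 TPM.

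SLC7A1 encodes CAT1, the carrier for arginine, lysine and other cationic amino acids in most cells (GRCh37, chr13:30083551-30169825, minus strand). It was at 162 TPM with DNMT1, 152 with DNMT3A, 173 with DNMT3B, 273 with EGFP and 109 in pUC19. All 4 fusion libraries were above pUC19, and the EGFP library stood well above the other 3. The log2 ratio to pUC19 was 0.58 (95% counting interval 0.55 to 0.61) with DNMT1, 0.49 (0.46 to 0.52) with DNMT3A, 0.68 (0.64 to 0.71) with DNMT3B and 1.33 (1.30 to 1.36) in the EGFP library. Only the last was called, and an edgeR exact test with an assumed coefficient of variation of 0.2 between cultures did not call it (adjusted p = 0.0764). The DNMT1, DNMT3A and DNMT3B libraries differed from each other by at most 0.19 in log2 ratio. For DNMT3B over DNMT1 the ratio was 0.10 (0.06 to 0.13) on the TPM scale, while the exact test of read counts gave 0.655 as its adjusted p, and TMM scaling (explained below) turned it to -0.03. Their log2 ratios to EGFP ran from -0.84 to -0.65.

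SLC7A5 encodes LAT1, the light chain that exchanges large neutral amino acids such as leucine and tryptophan (GRCh37, chr16:87863629-87903113, minus strand). Its TPM was 344 with DNMT1, 309 with DNMT3A, 306 with DNMT3B, 471 with EGFP and 237 in pUC19. EGFP was highest and DNMT1 next, and DNMT3A and DNMT3B lay together, this pair differing by a log2 ratio of 0.01 (-0.02 to 0.04) on the TPM scale, an interval that includes 0, although the exact test of read counts gave an adjusted p of 2.8e-05. Against pUC19 the log2 ratio was 0.54 with DNMT1, 0.39 with DNMT3A, 0.37 with DNMT3B and 0.99 (0.96 to 1.02) in the EGFP library, so that EGFP fell just short of the 2-fold limit. SLC7A5 has relatives that can take its reads: 6.52% of the 30-base stretches of its transcript are also in other transcripts, most of them in SLC7A5P2 and unnamed copies. SLC7A5P2 was at 4.80 to 6.66 TPM, and SLC7A5P1 at 5.12 to 20.3 TPM, both small beside SLC7A5. The SLC7A5 exons also overlap those of an unnamed noncoding gene on the other strand over 271 bp.

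SLC3A2 encodes the heavy chain 4F2hc (CD98), which carries LAT1 and other light chains to the surface (GRCh37, chr11:62623476-62656352, plus strand). Its TPM was 251 with DNMT1, 313 with DNMT3A, 278 with DNMT3B, 285 with EGFP and 245 in pUC19. These levels span 1.28 times, against 1.99 times for SLC7A5. The log2 ratio to pUC19 was 0.03 (-0.01 to 0.08) with DNMT1, 0.35 with DNMT3A, 0.18 with DNMT3B and 0.22 in the EGFP library. SLC3A2 was highest with DNMT3A and lowest in pUC19. The noncoding gene SNHG1 lies 50 bp from SLC3A2 and was at 263, 613, 475, 330 and 248 TPM in the same order of libraries.

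The ratio of light chain to heavy chain therefore differed between libraries. SLC7A5 over SLC3A2, as a ratio of TPM within 1 library, was 1.37 (1.34 to 1.41) with DNMT1, 0.99 (0.96 to 1.01) with DNMT3A, 1.10 (1.07 to 1.13) with DNMT3B, 1.65 (1.61 to 1.69) with EGFP and 0.97 (0.94 to 0.99) in pUC19. DNMT3A and pUC19 are neighbours in that order whose intervals overlap. Over the 5 libraries, SLC3A2 ranked 1256 of 6000 genes of at least 20 TPM by the distance of its centred log2(TPM + 0.1) profile from that of SLC7A5, whereas SLC6A9 ranked 28, SLC7A1 53 and SLC38A2 148. The genes nearest to SLC7A5 were WASF2, NIPAL3, PLCXD1, SARS and OGDH. SARS, seryl-tRNA synthetase, was at 416, 396, 368, 510 and 271 TPM.

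SLC7A6 encodes y+LAT2, a second light chain of 4F2hc that exchanges cationic for neutral amino acids with sodium (GRCh37, chr16:68298419-68335726, plus strand). Its TPM was 25.9 with DNMT1, 33.8 with DNMT3A, 38.1 with DNMT3B, 32.9 with EGFP and 43.98 in pUC19. It was the only member with its highest level in pUC19. The log2 ratio to pUC19 was -0.76 (-0.84 to -0.69) with DNMT1, -0.38 with DNMT3A, -0.21 with DNMT3B and -0.42 in the EGFP library, and none was called. DNMT3A and EGFP differed by 0.04 (-0.04 to 0.12). Its exons overlap those of SLC7A6OS on the other strand over 3372 bp, and since the strand of the libraries is not given in the sources used here, reads of the 2 genes cannot be told apart with certainty. SLC7A6OS was at 14.8, 26.1, 21.5, 19.9 and 15.05 TPM. SLC7A5 over SLC7A6 was 13.3, 9.14, 8.04, 14.3 and 5.38, lowest in pUC19.

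**Figure D2:**
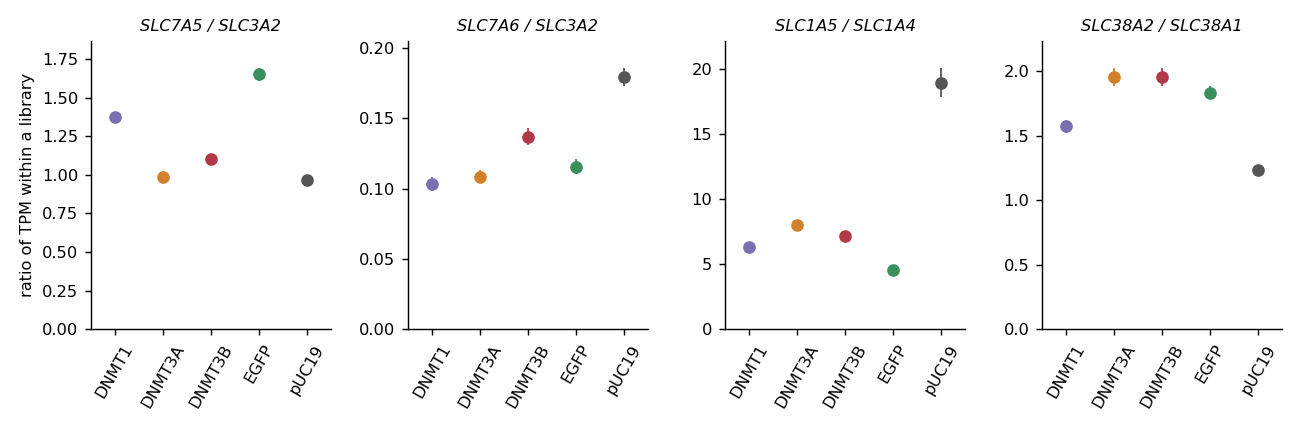
Ratio of the TPM of related members within each library (vertical axes start at 0), with bars for the 95% counting interval. SLC7A5 / SLC3A2 runs from 0.97 in pUC19 to 1.65 with EGFP, and SLC1A5 / SLC1A4 is 19.0 in pUC19 against 4.57 to 7.996 in the fusions.

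SLC1A4 encodes ASCT1, a sodium-dependent exchanger of alanine, serine and cysteine (GRCh37, chr2:65215611-65250999, plus strand). Its TPM was 38.1 with DNMT1, 31.9 with DNMT3A, 38.4 with DNMT3B, 66.9 with EGFP and 15.8 in pUC19. All 4 fusion libraries lay above the 1 pUC19 library, the lowest at 2.02 times its level. Of 16001 genes, 23.1% had all 4 fusion libraries above pUC19. The log2 ratio was 1.27 (1.16 to 1.37) with DNMT1, 1.01 (0.906 to 1.119) with DNMT3A, 1.28 (1.17 to 1.38) with DNMT3B and 2.08 (1.98 to 2.17) in the EGFP library, and SLC1A4 was the only member called in all 4. The DNMT3A value sits just past the 2-fold limit and was 0.97 with a pseudocount of 1 TPM. With an assumed coefficient of variation of 0.2 between cultures, the edgeR exact test kept the call with EGFP (adjusted p = 0.000501) and lost the other 3, at adjusted p of 0.0674 with DNMT1, 0.143 with DNMT3A and 0.0504 with DNMT3B. DNMT1 and DNMT3B differed by 0.01 (-0.08 to 0.10). DNMT3A was below EGFP by a log2 ratio of -1.07 (-1.15 to -0.98), the only called difference of a member between 2 fusions, and this call too was lost with that assumed spread.

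SLC1A5 encodes ASCT2, the related exchanger that takes glutamine (GRCh37, chr19:47278140-47291851, minus strand). Its TPM was 242 with DNMT1, 255 with DNMT3A, 275 with DNMT3B, 306 with EGFP and 299 in pUC19. EGFP and pUC19 differed by a log2 ratio of 0.03 (-0.00 to 0.07), an interval that includes 0. The DNMT1, DNMT3A and DNMT3B fusions lay below pUC19, with log2 ratios of -0.31, -0.23 and -0.12. SLC1A5 over SLC1A4 was 6.34, 7.996, 7.17 and 4.57 in the 4 fusion libraries, in the order above, and 19.0 (17.9 to 20.1) in pUC19. Both genes hold the CARE letters in a window, SLC1A4 at its start and SLC1A5 from base -97 to base -89 of 1 of its 3. The SLC1A5 exons overlap those of an unnamed noncoding gene on the other strand over 780 bp, so the limit given for SLC7A6 holds for SLC1A5 too.

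SLC38A1 encodes SNAT1, a sodium-coupled importer of small neutral amino acids including glutamine (GRCh37, chr12:46576846-46663800, minus strand). Its TPM was 73.8 with DNMT1, 51.3 with DNMT3A, 65.7 with DNMT3B, 92.5 with EGFP and 84.2 in pUC19. The DNMT3A and DNMT3B libraries were the lowest pair, and EGFP and pUC19 the highest. The log2 ratio to pUC19 was -0.19 (-0.23 to -0.15) with DNMT1, -0.71 (-0.76 to -0.67) with DNMT3A, -0.36 (-0.40 to -0.31) with DNMT3B and 0.14 (0.10 to 0.18) in the EGFP library.

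SLC38A2 encodes SNAT2, the family member known for its induction under amino acid shortage (GRCh37, chr12:46751971-46766556, minus strand). Its TPM was 116 with DNMT1, 100.4 with DNMT3A, 128 with DNMT3B, 170 with EGFP and 104 in pUC19. The log2 ratio to pUC19 was 0.16 with DNMT1, -0.05 (-0.10 to -0.00) with DNMT3A, 0.30 with DNMT3B and 0.71 (0.66 to 0.75) in the EGFP library. DNMT3A and pUC19 were the closest neighbours in the order. SLC38A2 over SLC38A1 was 1.57 with DNMT1, 1.96 with DNMT3A, 1.95 with DNMT3B, 1.83 with EGFP and 1.24 (1.20 to 1.27) in pUC19. The fusions all stood above pUC19, and DNMT3A and DNMT3B had overlapping intervals.

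SLC6A9 encodes GlyT1, a sodium- and chloride-coupled glycine carrier (GRCh37, chr1:44457172-44497139, minus strand). Its TPM was 30.9 with DNMT1, 33.6 with DNMT3A, 34.5 with DNMT3B, 50.7 with EGFP and 24.3 in pUC19. All 4 fusions were above pUC19. The log2 ratio was 0.35 (0.24 to 0.46) with DNMT1, 0.47 (0.36 to 0.58) with DNMT3A, 0.51 (0.40 to 0.62) with DNMT3B and 1.06 (0.96 to 1.16) in the EGFP library, and only the last was called, with an interval that reaches below the 2-fold limit and an adjusted p of 0.239 in the edgeR exact test with the assumed coefficient of variation of 0.2. DNMT3A and DNMT3B differed by -0.04 (-0.15 to 0.07). Its exons overlap CCDC24 on the other strand over 413 bp.

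SLC43A1 encodes LAT3, a facilitator that lets large neutral amino acids run down their gradient (GRCh37, chr11:57252007-57283253, minus strand). Its TPM was 28.1 with DNMT1, 30.4 with DNMT3A, 27.1 with DNMT3B, 38.5 with EGFP and 34.4 in pUC19. These values span 1.42 times. The log2 ratio to pUC19 was -0.29 (-0.41 to -0.17), -0.18 (-0.30 to -0.06), -0.34 (-0.47 to -0.21) and 0.16 (0.05 to 0.28), so only EGFP lay above pUC19. The interval included 0 for DNMT3A over DNMT1 (0.11, -0.02 to 0.25) and for DNMT3B over DNMT1 (-0.05, -0.19 to 0.09).

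**Figure D3:**
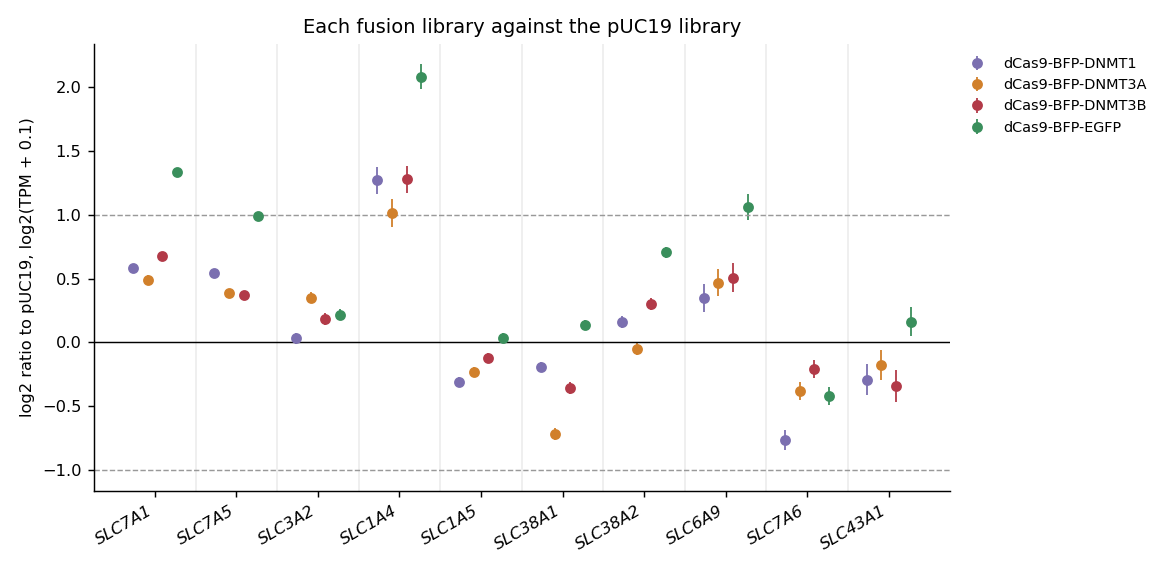
Difference of log2(TPM + 0.1) between each fusion library and the pUC19 library for the 10 members, with bars for the 95% counting interval and dashed lines at a ratio of 2 in either direction. SLC1A4 lies above the upper line in all 4 fusions (1.01 to 2.08) and SLC7A6 below 0 in all 4 (-0.76 to -0.21).

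Counted over the members, 1 of 10 was called against pUC19 with DNMT1, where 5.16% of 19022 genes were, 1 with DNMT3A (9.36% of 18970 genes), 1 with DNMT3B (8.76% of 18962) and 3 in the EGFP library (5.70% of 19125). All of these were higher than pUC19. The median log2 ratio of the members was 0.10, 0.15, 0.24 and 0.46 in the same order, beside -0.15, -0.06, -0.05 and -0.00 over all genes tested. The 4 comparisons share the pUC19 library and are not independent of each other. Scaling by the trimmed mean of M values (TMM) in place of TPM raised every ratio of DNMT1 to pUC19 by 0.13 and moved the other 3 by at most 0.02, with no member changing direction against pUC19.

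Between fusions, which all carry dCas9, BFP and the same guides, DNMT1 was below EGFP for all 10 members, with a median log2 ratio of -0.45 against -0.13 over all genes and 0 called (1.44% of 18831 genes). TMM scaling raised this ratio by 0.14 and left all 10 below 0. DNMT3A was below EGFP for 8 of 10 members, with a median of -0.60 against -0.05 and 1 called (3.97% of 18808). DNMT3B was below EGFP for 9 of 10, with a median of -0.50 against -0.02 and 0 called (3.50% of 18792). No member was called for DNMT3A against DNMT1 (3.59% of 18679 genes), DNMT3B against DNMT1 (3.54% of 18655) or DNMT3A against DNMT3B (0.215% of 18625). TMM scaling also turned SLC1A5 in DNMT3A against DNMT1 from 0.08 to -0.03 and SLC1A4 in DNMT3B against DNMT1 from 0.01 to -0.12. By the exact test alone, without the 2-fold limit, 7, 4 and 6 members passed in these 3 comparisons, beside 36.9%, 35.6% and 14.3% of all genes. The test passes more of the abundant genes: among genes of at least 10 TPM, a level that every member exceeded, the shares were 62.5%, 60.8% and 26.4%. An edgeR exact test with an assumed coefficient of variation of 0.2 between cultures called 0 members in each of the 6 comparisons between fusions.

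A fit across all genes with edgeR's quasi-likelihood test set the 4 fusion libraries against the pUC19 library. The 4 are different constructs and stand in for replicates of having received a fusion, and the single pUC19 library is taken to vary as they do. SLC1A4 had the largest fitted value, a log2 fold change of 1.52 ± 0.39 (SE) with an adjusted p of 0.0981. SLC7A1 (0.86 ± 0.31, adjusted p = 0.199), SLC6A9 (0.67 ± 0.28, adjusted p = 0.249) and SLC7A5 (0.65 ± 0.26, adjusted p = 0.237) followed. At an adjusted p under 0.05 the test passed 0 of 10 members, where it passed 118 of 16001 genes (0.737%, 15 of them higher), and 4 members had an unadjusted p under 0.05, as did 2879 of all 16001 genes. DESeq2 passed 1 member, SLC1A4, with an adjusted p of 0.00217, where it passed 977 of 14745 genes (6.63%). The fusion libraries all lay on the same side of pUC19 for 6 members, 5 of them above and SLC7A6 below, and for 55.2% of all genes.

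The second fit compared the fusions with a de novo methyltransferase, DNMT3A and DNMT3B, with the DNMT1 and EGFP fusions. For the latter pair the study reports no significant rise in uPA methylation. SLC38A1 was lower with the de novo enzymes, at 51.3 and 65.7 TPM against 73.8 and 92.5, without overlap, by a log2 fold change of -0.56 ± 0.14 (adjusted p = 0.0385). It was the only one of 10 members to pass, where 1694 of 15332 genes (11.0%) did. SLC7A5 was also without overlap, at 309 and 306 against 344 and 471 TPM, with -0.45 ± 0.14 and an adjusted p of 0.0655. SLC1A4 (-0.62 ± 0.21, adjusted p = 0.0832) and SLC7A1 (-0.46 ± 0.19, adjusted p = 0.141) overlapped between the groups. In all, 3 members did not overlap, SLC38A1 and SLC7A5 below and SLC7A6 above, while 57.5% of genes did not. The median over the members was -0.33, beside -0.01 over all genes, and it was -0.10 without the EGFP library and -0.56 without the DNMT1 library. SLC38A1 did not pass without a filter on low counts (adjusted p = 0.0658), without the DNMT3A library (-0.39, adjusted p = 0.449) or without the DNMT3B library (-0.74, adjusted p = 0.146), settings in which 18 and 53 genes passed in all. SLC7A5 and SLC1A4 passed with DESeq2, where 2146 of 12992 genes (16.5%) did. Both also passed with an offset for GC content and length, where 2268 of 13882 genes (16.3%) did. Without the DNMT1 library SLC7A5 was at -0.60, SLC1A4 at -0.91, SLC7A1 at -0.73, SLC38A1 at -0.65, and SLC38A2 and SLC6A9 at -0.56. SLC43A1 was then at -0.40 and SLC1A5 at -0.19, while SLC3A2 (0.07) and SLC7A6 (0.14) stood above 0. Without the EGFP library SLC7A5 was at -0.28, SLC38A1 at -0.46 and SLC7A6 at 0.35. SLC1A4 was then at -0.24 and SLC7A1 at -0.12, and SLC6A9 (0.02) and SLC1A5 (0.01) turned above 0.

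**Figure D4:**
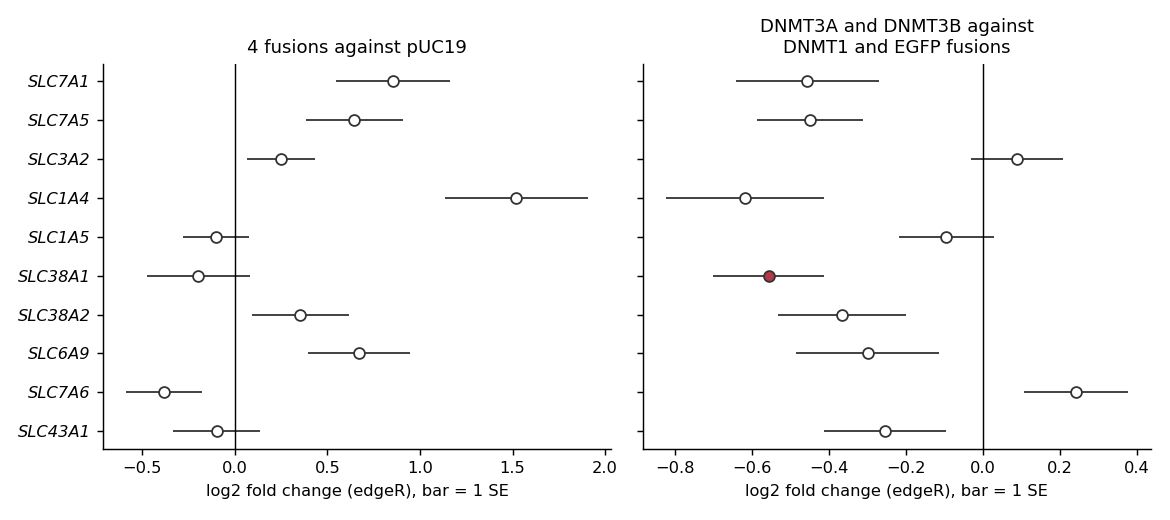
Log2 fold change of the 10 members in the 2 edgeR fits, with bars of 1 SE. Open points did not pass an adjusted p of 0.05 and the filled point, SLC38A1 at -0.56 in the comparison of DNMT3A and DNMT3B with DNMT1 and EGFP, did.

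The members were then set beside 4 lists of related genes, which were chosen with earlier results of these data known. The first list holds ATF4 and other genes of the amino acid response. Of its 14 genes, 4 were called with DNMT1, 5 with DNMT3A, 5 with DNMT3B and 6 in the EGFP library, all higher, with median log2 ratios of 0.52, 0.54, 0.74 and 0.96. Over all genes 5.16%, 9.36%, 8.76% and 5.70% were called, and 1.53%, 4.4%, 4.47% and 2.60% were called higher. NUPR1, a small stress-induced chromatin protein, was at 21.6, 26.9, 19.3 and 21.1 TPM in the 4 fusions and 5.21 in pUC19, and was the 1 gene of this list to pass the fit against pUC19 (2.14 ± 0.34, adjusted p = 0.0377). TRIB3, a pseudokinase that restrains ATF4 signalling, was at 116, 86.9, 84.5 and 96.8 TPM and 36.0 in pUC19. SESN2, a leucine sensor that restrains mTORC1, was at 254, 589, 589 and 370 TPM and 140 in pUC19. ATF4 mRNA itself was at 1251, 1511, 1474, 1635 and 1210 TPM and was not called. ATF4 protein was not measured.

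In the fit of DNMT3A and DNMT3B against DNMT1 and EGFP, 7 of these 14 genes passed, 4 lower and 3 higher. Over all genes 1694 of 15332 (11.0%) passed, 636 lower and 1058 higher. Asparagine synthetase ASNS (-0.94 ± 0.14, adjusted p = 0.00747), the transcription factor DDIT3 (-0.93 ± 0.17, adjusted p = 0.0111), the glutathione-degrading enzyme CHAC1 (-0.85 ± 0.18, adjusted p = 0.0195) and XBP1 were lower, as SLC38A1 was. SESN2 (0.87 ± 0.15, adjusted p = 0.0102), DDIT4 and ATF3 were higher. ASNS was at 627, 412, 391, 871 and 446 TPM in the order DNMT1, DNMT3A, DNMT3B, EGFP and pUC19, the order that SLC7A5 also had among the fusions. These genes were named after their values were seen.

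The second list holds other amino acid transporters of the plasma membrane and lysosome, of which 34 or 35 of 39 had reads in a comparison. Against pUC19, 1, 6, 3 and 4 of them were called in the DNMT1, DNMT3A, DNMT3B and EGFP libraries, of which 1, 5, 2 and 2 were lower. In the same comparisons 3.63%, 4.96%, 4.29% and 3.10% of all genes were called lower, and with DNMT1 the calls over all genes were themselves 691 lower against 291 higher. SLC38A9, the lysosomal arginine sensor for mTORC1, was lower in all 4, at 10.4, 9.30, 8.70 and 12.0 TPM against 24.8 in pUC19. SLC1A1, a glutamate carrier, was called lower with DNMT3A, DNMT3B and EGFP, at 2.84, 2.91 and 2.99 TPM against 8.26. Their summed level was 289 to 356 TPM, beside 1196 to 1786 TPM for the 10 members.

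In the fit of DNMT3A and DNMT3B against DNMT1 and EGFP, 5 of 26 passed, beside 11.0% of all genes. These 5 were named after their values were seen. SLC7A3, a cationic carrier related to SLC7A1, was at 12.2 and 11.9 TPM against 29.0 and 36.2 (-1.48 ± 0.16, adjusted p = 0.00235). SLC7A2, another cationic carrier, was lower by -0.89 ± 0.20, the cystine importer SLC7A11 by -0.83 ± 0.21 and the light chain SLC7A8 (LAT2) by -0.64 ± 0.16, with adjusted p of 0.0253, 0.0376 and 0.0334. SLC6A17, at 1.77 to 5.17 TPM, was higher.

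The third list, mitochondrial carriers of amino acids, had 11 of 12 genes with reads, of which 1, 1, 3 and 0 were called against pUC19, and 4 passed the fit of DNMT3A and DNMT3B against DNMT1 and EGFP, all higher, beside 11.0% of all genes. The fourth, genes through which mTORC1 and the kinase GCN2 sense amino acids, had 27 genes with reads, of which 1, 3, 3 and 3 were called. Of these, 0, 2, 1 and 2 were higher and 1, 1, 2 and 1 lower. SESN2 is in this list as well as in the first. Over all genes 5.16%, 9.36%, 8.76% and 5.70% were called, and each of these counts is of 3 genes or fewer. MIOS, a subunit of the GATOR2 complex, was below pUC19 in all 4, at 14.7, 12.8, 13.5 and 16.3 TPM against 31.98, and was called lower in 3, all but EGFP (log2 ratio -0.97). MYC was at 88.2, 73.8, 65.5 and 75.5 TPM in the fusions against 387 in pUC19 (-2.29 ± 0.20 in the edgeR fit, adjusted p = 0.00936). SLC7A5, SLC1A5 and SLC43A1, whose windows hold the E-box letters, had log2 ratios to pUC19 from -0.34 to 0.99. A link between MYC and these genes was not tested.

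**Figure D5:**
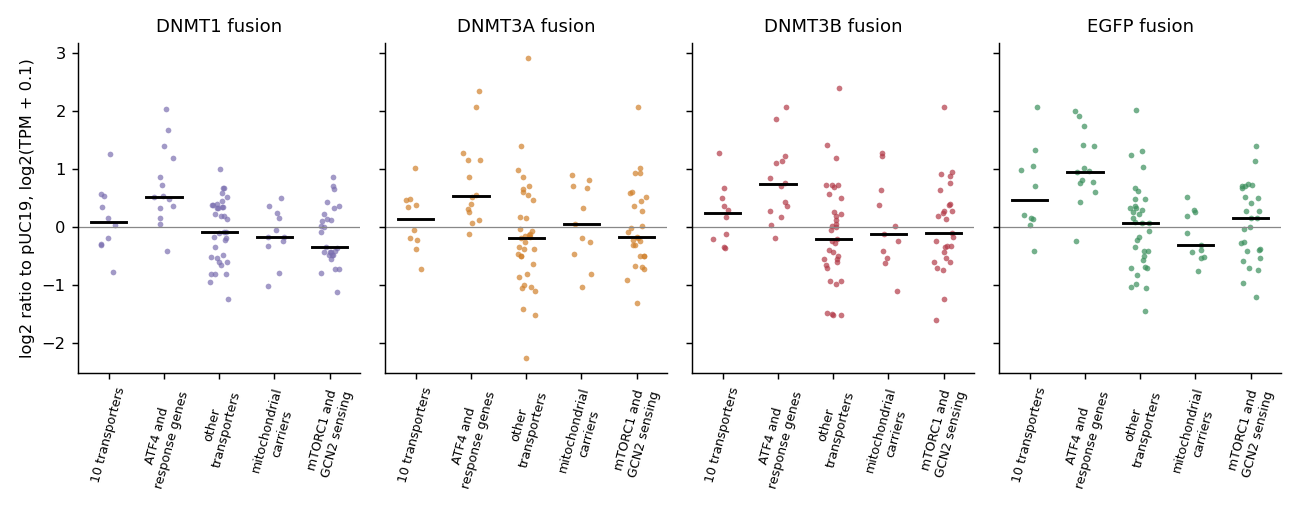
Difference of log2(TPM + 0.1) from pUC19 for each gene (points, spread sideways for sight) of the 10 transporters and of 4 related lists, 1 panel per fusion, with a black line at each median. The line of the ATF4 list lies at 0.52 to 0.96 and that of the 10 transporters at 0.10 to 0.46.

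The members did not share 1 profile, since SLC7A6 was highest in pUC19 and SLC3A2 with DNMT3A, but the median of their centred values in each library gives a profile to which other genes can be compared. Of 5992 genes with at least 20 TPM in every library, those whose centred log2(TPM + 0.1) lay nearest to the median profile of the members over the 5 libraries were LCLAT1, SEC24C, GARS, IFNAR1 and ARL6IP5. GARS, glycyl-tRNA synthetase, was at 492 TPM with DNMT1, 501 with DNMT3A, 514 with DNMT3B, 729 with EGFP and 468 in pUC19, and SEC24C, a coat protein of vesicles leaving the endoplasmic reticulum, at 63.9, 68.4, 70.0, 91.6 and 61.7. Both were highest with EGFP and lowest in pUC19, as the sum of the members was. Their closeness to the members was the rule that picked them and is not a separate result.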

How the data were processed

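RNA was measured in 5 HEK293T libraries, 1 per group, grouped by sample title. Per the study's methods, Ion Proton reads were aligned with tmap to RefSeq transcripts (hg19), with unique reads counted. The files deposited by the authors give read counts per gene, TPM computed from them by the authors, and the percent of the transcript covered. The counts summed to 26200000 to 36100000 reads (rounded) per library, and TPM recomputed from counts and lengths matched. The strand of the libraries is not given in the sources used here.

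The members and the gene lists were chosen with earlier results of these data known. All members are named. Genes of other lists are named where they were called the same way against pUC19 in at least 3 fusions and reached 5 TPM, at most 6 per list, with other names marked as chosen later. Pairs of libraries were compared by an exact binomial test of counts (two-sided, Benjamini-Hochberg adjusted over all genes with a read) with log2(TPM + 0.1), as the study's call rule of adjusted p of at most 0.001 and 2-fold. Intervals are 95% exact binomial for ratios and for levels, and cover counting error only. edgeR 4.0.16 (glmQLFit, TMM, filterByExpr, adjusted p under 0.05) fitted the 2 groupings of libraries, on all genes. DESeq2 was an alternative, as were the settings in the closing section. Scripts were tested on simulated data. Gene positions are from GENCODE 44 on GRCh37 and promoter windows from RefSeq on GRCh38.p14, with no conversion between builds. All 10 members had a window.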

Additional observations from a re-analysis of the deposited data

Results flagged for a closer look

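SLC38A1 differed between the fusions of the de novo methyltransferases and the other 2 fusions, with a log2 fold change of -0.5571 in the edgeR fit (adjusted p = 0.0385). The log2 fold change was -0.39 (adjusted p = 0.449) without the DNMT3A library, where 18 of all genes passed, and -0.74 (adjusted p = 0.146) without the DNMT3B library, where 53 did. How the 4 libraries were batched is not given in the sources used here.

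SLC1A4 differed between the DNMT3A and EGFP fusions, with a log2 ratio of -1.065 between 2 single libraries. With an assumed coefficient of variation of 0.2 between cultures it was not called.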

How the results depend on the processing

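There was 1 library per group, so no comparison of 2 libraries has an error between cultures, and the control cannot be left out. No paired analysis was possible because each group has 1 library. The counts of calls depended on how much spread between cultures was assumed and on the fold limit.

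Genes called, given for DNMT1, DNMT3A, DNMT3B and EGFP against pUC19, numbered 32, 131, 107 and 58 with an assumed coefficient of variation of 0.2, with 0, 0, 0 and 1 members, and 2874, 4273, 4132 and 3091 with a fold of at least 1.5, with 2, 2, 2 and 5 members. The genes tested numbered 19022, 18970, 18962 and 19125 in that order. A pseudocount of 1 TPM gave 540, 1143 and 648 for DNMT1, DNMT3A and EGFP, and 0 members for DNMT3A.

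Between fusions, given as DNMT3A to DNMT1, DNMT3B to DNMT1, DNMT1 to EGFP, DNMT3A to DNMT3B, DNMT3A to EGFP and DNMT3B to EGFP, the genes called were 6, 7, 7, 3, 11 and 9 with the coefficient of variation (0 members for DNMT3A to EGFP), 2563, 2493, 1223, 141, 2431 and 2182 with the lower fold (3, 6 and 3 members for the comparisons of DNMT1, DNMT3A and DNMT3B with EGFP), and 377, 400, 130, 20, 411 and 355 with the pseudocount. In that order, 18679, 18655, 18831, 18625, 18808 and 18792 genes were tested. An adjusted p of 0.05 gave 586, 192, 1177 and 1067 for the last 4. TMM scaling reversed SLC1A5 in DNMT3A to DNMT1 (-0.031) and SLC7A1 (-0.029) and SLC1A4 (-0.12) in DNMT3B to DNMT1, of which none was called.

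In the fit of 4 fusions against pUC19, DESeq2 passed 977 genes and 1 member, no filter 252 genes, and leaving out 1 fusion 65 to 95 genes and 0 members, lowest without DNMT3A (65) and EGFP (78). In the fit of DNMT3A and DNMT3B against DNMT1 and EGFP, DESeq2 passed 2146 genes (16.5%) and 3 members. The GC and length offset passed 2268 genes (16.3%) and 3 members, and no filter 1052 genes and 0 members. Leaving out 1 library gave 18 to 3850 genes and 0 to 6 members, with 3536 genes without DNMT1, 18 without DNMT3A, 53 without DNMT3B and 3850 without EGFP. SLC3A2 reversed with the offset (-0.040) and without DNMT3A (-0.00291), its range over left-out libraries being -0.00291 to 0.179, and SLC1A5 (-0.192 to 0.012) and SLC6A9 (-0.557 to 0.019) reversed without EGFP. The cause was not tested.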

Other observations

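Reads covered 83.3% to 89.0% of the SLC38A2 transcript and 85.8% to 93.0% of SLC38A1, the 2 members with the lowest GC content (37.4% and 41.3% of bases). SLC1A5, with 61.3% GC, was covered in full in every library. The promoter windows of the members held 6 to 49 CpG sites, with a median of 23, beside 14 over all windows. The windows of SLC7A1, SLC7A6 and SLC7A5 held 49, 48 and 44. Methylation of these windows was not analysed here.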
